A study of Mus musculus with 6 samples.

Results

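The unfolded protein response and the integrated stress response were followed through 43 genes in Carmil3 KO and control cells of 4T1, a mammary tumour line from mouse. Carmil3 encodes a protein of the CARMIL family, which binds actin capping protein. The 43 genes were taken by symbol from the 23644 genes of the deposited table, and all 43 were listed there. They were 9 regulators linked to the transcription factor ATF4, 10 enzymes of amino-acid and one-carbon metabolism, 4 genes of the sensors of endoplasmic reticulum (ER) stress and their effector Xbp1, 14 ER chaperones and folding factors, and 6 genes of ER-associated degradation. The chaperones and the degradation genes are together called the ER arm. The 3 Carmil3 KO libraries came from cells that were, per the labels, derived from single cells of 4T1. The 3 WT libraries came from 4T1 control cells. Both groups were grown in the same medium with serum, and no stress treatment is named in the labels. The labels do not say how many clones were sequenced or name separate cultures for the libraries. Here p-values weigh the difference between the groups only against the spread among these libraries, which may be technical. Differences between clones and effects of the knockout cannot be told apart.

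Protein folding in the ER is watched over by 3 membrane sensors. PERK (Eif2ak3) phosphorylates the translation factor eIF2, which slows protein synthesis in general while the Atf4 messenger is translated more. IRE1 (Ern1) splices the Xbp1 messenger, and ATF6 is cut in the Golgi to release a transcription factor. XBP1 and ATF6 drive genes of ER chaperones and of ER-associated degradation. ATF4 drives amino-acid supply genes, and it is also reached from other eIF2 kinases, such as the amino-acid sensor GCN2, without ER stress. Since ATF4 is controlled mainly at translation, XBP1 by splicing and ATF6 by cleavage, gene-level FPKM does not measure the activity of these factors.

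The promoter sequences are shown because some elements were more frequent in the ER arm and others in the ATF4-linked genes, though many genes of both lack them. RefSeq windows on GRCm38.p6, of 250 bases before to 50 bases after a transcription start, matched 38 of the 43 genes. The ER stress response element, searched on both strands as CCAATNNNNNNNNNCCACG, stood in the windows of 9 of 18 ER arm genes with a window. It stood in 0 of 20 such genes of the other groups, and in 0.137% of all 27025 genes with a window. The C/EBP-ATF element, searched on both strands as TGATGNAA, stood in 4 of 8 ATF4-linked regulators, 2 of 9 enzymes and 1 of 18 ER arm genes, against 4.51% of all genes with a window. The shorter element TGACGTG was found only in the Hspa5 window among these genes, against 2.22% of all genes. No matches of these elements overlapped each other. A match is a run of letters, not a shown binding site. The 250 bases before the start are given for Hspa5 and Calr, ER chaperone genes that fell, and for Chac1 and Asns, ATF4-linked genes that rose, 5′ to 3′ along the gene's strand. Capitals mark the matches, which in Calr and Chac1 lie on the opposite strand.
Hspa5 (chr2:34771840-34772089, plus strand): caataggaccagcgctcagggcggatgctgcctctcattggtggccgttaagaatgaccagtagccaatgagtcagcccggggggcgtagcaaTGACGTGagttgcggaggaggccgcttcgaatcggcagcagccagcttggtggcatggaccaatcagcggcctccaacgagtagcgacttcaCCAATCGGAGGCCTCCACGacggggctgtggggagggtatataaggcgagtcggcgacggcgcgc
Calr (chr8:84846932-84847181, minus strand): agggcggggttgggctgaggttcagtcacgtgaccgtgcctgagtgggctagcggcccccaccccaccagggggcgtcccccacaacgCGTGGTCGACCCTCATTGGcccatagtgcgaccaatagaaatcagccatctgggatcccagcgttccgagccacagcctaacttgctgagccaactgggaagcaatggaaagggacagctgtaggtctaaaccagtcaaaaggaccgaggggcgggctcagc
Chac1 (chr2:119350992-119351241, plus strand): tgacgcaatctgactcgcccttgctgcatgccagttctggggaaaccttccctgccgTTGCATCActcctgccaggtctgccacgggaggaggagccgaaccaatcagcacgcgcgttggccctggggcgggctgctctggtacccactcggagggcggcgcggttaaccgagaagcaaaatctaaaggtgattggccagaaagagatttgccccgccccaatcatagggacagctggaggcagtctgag
Asns (chr6:7693210-7693459, minus strand): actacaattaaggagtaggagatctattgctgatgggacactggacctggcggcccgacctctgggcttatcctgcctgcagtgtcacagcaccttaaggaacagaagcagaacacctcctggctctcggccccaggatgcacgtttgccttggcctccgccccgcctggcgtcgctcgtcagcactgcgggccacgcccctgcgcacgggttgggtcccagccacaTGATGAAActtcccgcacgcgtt
The 10 matches to the ER stress response element in 9 genes are given along the element's own strand, with its fixed letters in capitals. Distances are those of the match's first base, in the direction of the gene.
Calr, 162 bases before the start: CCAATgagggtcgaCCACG
Canx, 145 bases before the start: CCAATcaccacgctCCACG
Creld2, 126 bases before the start: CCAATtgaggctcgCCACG
Derl3, 156 bases before the start: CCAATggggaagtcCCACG
Dnajc3, 105 bases before the start: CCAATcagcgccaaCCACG
Hsp90b1, 107 bases before the start: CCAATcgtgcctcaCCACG
Hsp90b1, 212 bases before the start: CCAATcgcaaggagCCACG
Hspa5, 65 bases before the start: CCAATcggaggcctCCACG
Pdia6, 98 bases before the start: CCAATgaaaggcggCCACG
Syvn1, 44 bases before the start: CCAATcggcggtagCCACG
The 9 letters between the fixed ends differed in each of these 10 matches. Of the 8 of these genes that were tested for expression, Calr, Creld2, Dnajc3, Hspa5 and Pdia6 were called lower in Carmil3 KO and none higher, with a median log2 change of -0.26, against 18.7% of all genes tested called lower. The calls of Calr, Pdia6 and Creld2 were lost when each gene's change was centred on its chromosomal neighbours. Canx, Hsp90b1 and Syvn1 did not pass the test. Of the 9 ER arm genes whose windows lack these letters, Dnajb11, Sel1l and Edem2 fell and Pdia4 rose, with a median of -0.09. The 5 tested genes outside the 43 whose windows hold the element had values either side of 0, with Pan2 (log2 change -0.45) and Zfp57 (-0.38) lower and Adcy3 (0.21), Hnrnpa3 (0.06) and Alg12 (-0.15) not passing. Of the 7 genes of the 43 with the C/EBP-ATF element, Chac1 and Asns were called higher and Atf3 lower. Trib3, Nupr1, Pycr1 and Herpud1 did not pass. Of the 190 other tested genes with it, 18.4% were called higher and 17.4% lower, against 16.9% and 18.7% of all genes tested.

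Library read totals, recovered from the steps between FPKM values, were between 17779109 and 19046797 per library. Recovered reads of the listed genes summed to 108.7% to 109.1% of these totals, which may thus not count all reads. Values were compared as log2(FPKM + 1) with limma over the 11171 genes that reached 1 FPKM in 3 or more libraries, and a gene was called at a Benjamini-Hochberg adjusted p under 0.05. All adjusted p-values given come from limma with Benjamini-Hochberg adjustment over all these genes. Carmil3 itself was listed at 0 to 0.0241 FPKM in Carmil3 KO libraries and at 0.0117 to 0.0360 FPKM in WT libraries, too low to check the labels. Of the markers of mammary epithelium, Krt8 and Krt18 were present in every library (208 to 244 FPKM in Carmil3 KO, 452 to 544 FPKM in WT). Epcam, Krt7 and Krt14 were under 0.2 FPKM in every Carmil3 KO library, and at 2.60 to 30.5 FPKM in WT libraries. Cdh1 averaged 0.773 ± 0.0434 FPKM in Carmil3 KO and 12.4 ± 0.245 FPKM in WT (SD, n = 3 each). The summed level of 5 macrophage markers was 3.48 to 4.62 FPKM in Carmil3 KO and 4.03 to 4.21 FPKM in WT libraries, with Ptprc at or near 0 in all of them. Among 4 fibroblast markers Pdgfra was higher (17.4 to 17.9 FPKM in Carmil3 KO, 9.96 to 10.2 FPKM in WT), Col1a1 lower (0.252 to 0.296 FPKM in Carmil3 KO, 1.36 to 1.74 FPKM in WT), Dcn stayed under 0.2 FPKM, and Lum was not analysed here. Carmil3 KO replicate 3 lay apart from the other Carmil3 KO libraries on the second principal component, which held 11.8% of the variance. Mitochondrial genes made up 7.78% to 8.75% of summed FPKM in Carmil3 KO and 7.76% to 8.90% in WT libraries. The part of these marker differences in the results was not tested, and in bulk libraries fewer cells of a kind and less RNA per cell cannot be told apart.

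Of the 43 genes 41 were tested, of which 11 rose, 11 fell and 19 did not pass. Over all tested genes 35.6% were called, 16.9% as higher and 18.7% as lower, so a called gene was common in this comparison. Of 9 tested ATF4 enzymes 5 rose and 0 fell, and of 9 ATF4-linked regulators 5 rose and 2 fell. Of 19 tested ER arm genes 1 rose and 8 fell. The median log2 change was 0.17 for the enzymes, 0.31 for the regulators and -0.10 for the ER arm, against -0.01 over all genes tested. Values of the groups did not overlap, on the lower side, for 10 of 19 ER arm genes, against 26.4% of all genes tested. On the higher side they did not overlap for 5 of 9 enzymes and 5 of 9 regulators, against 24.2% of all genes tested. In either direction they did not overlap for 25 of the 41 tested genes, against 50.5% of all genes tested. Tested against a 1.5-fold change, only Cth was called among the 41 genes. By ratio of means Atf5 (Carmil3 KO over WT 1.66) and Atf3 (WT over Carmil3 KO 1.74) were also past 1.5-fold.

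**Figure D1:**
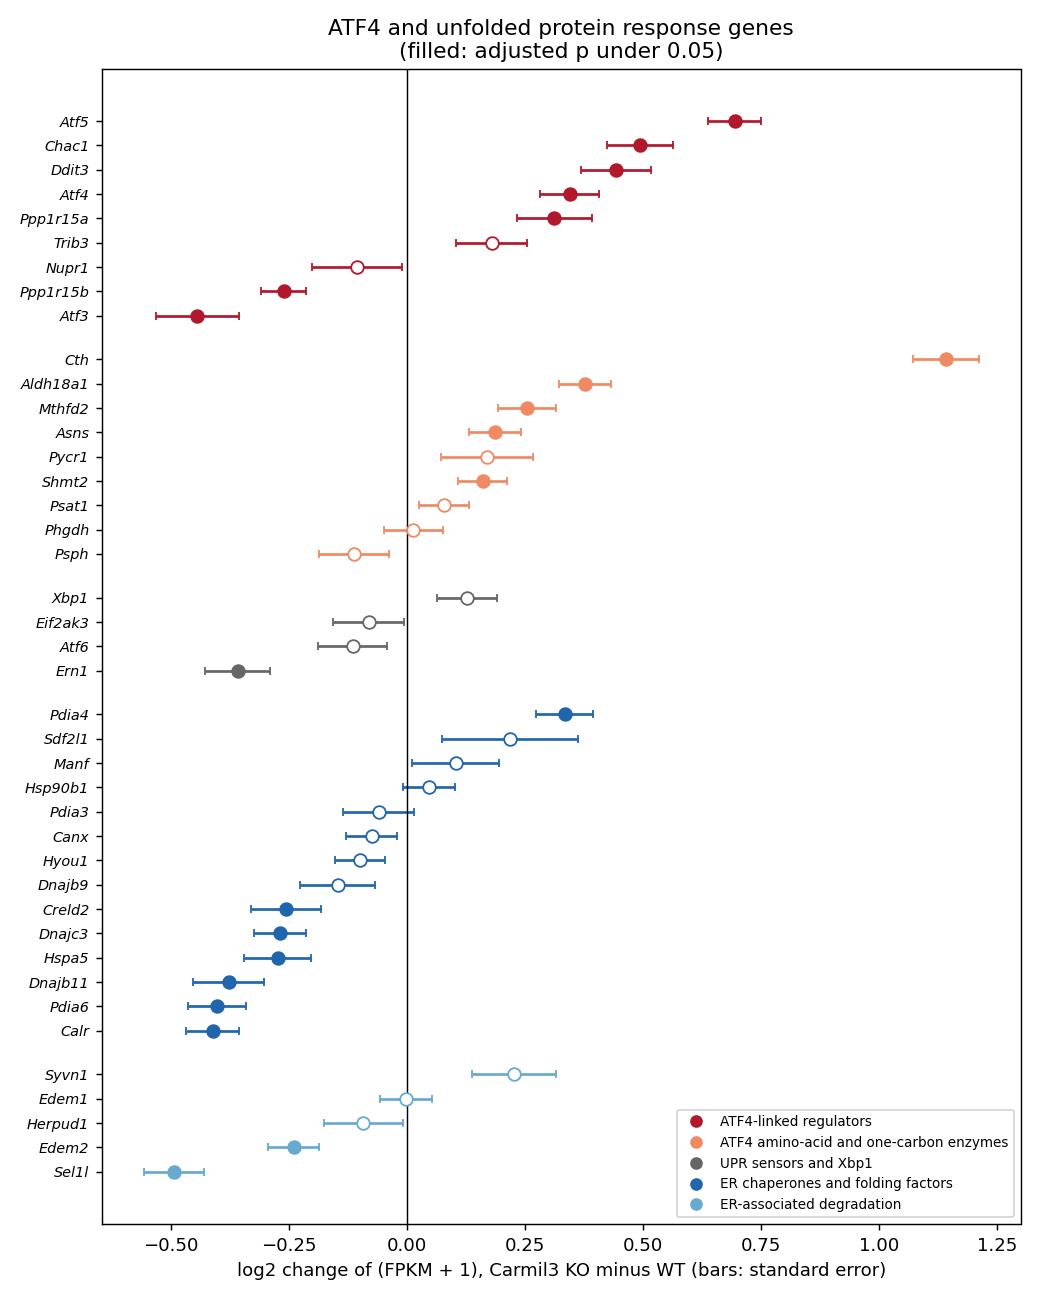
Log2 change of (FPKM + 1), Carmil3 KO minus WT, for the 41 tested genes (x axis) by group (rows, colours), with limma's standard error as bars and filled points for adjusted p under 0.05. Most filled points of the regulators and enzymes lie right of 0, up to 1.14 for Cth, and most filled points of the ER arm lie left of 0, down to -0.49 for Sel1l.

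Among the ATF4-linked regulators, Atf4 (ENSMUSG00000042406, chromosome 15, 80255184 to 80257541, plus strand, GRCm38) measured 122, 123 and 137 FPKM in Carmil3 KO replicates 1 to 3, against 95.8, 102 and 102 FPKM in WT replicates 1 to 3. Every Carmil3 KO library lay above every WT library, and the log2 change was 0.34 with a standard error of 0.063 (adjusted p = 0.00358, limma). Atf5, a related transcription factor gene whose messenger is also translated under eIF2 phosphorylation, measured 24.1, 23.4 and 25.1 FPKM in Carmil3 KO, against 14.3, 14.2 and 15.3 FPKM in WT libraries. Its groups did not overlap, and with a ratio of Carmil3 KO to WT of 1.66 it rose most among the regulators (log2 change 0.69, adjusted p = 3.44e-05, limma). Its exons share 82 bases with Nup62 on the opposite strand, which averaged 41.8 FPKM in Carmil3 KO and 31.3 FPKM in WT, and whether reads were counted by strand is not known.

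Ddit3, which encodes the stress transcription factor CHOP, measured 4.63, 4.51 and 3.99 FPKM in Carmil3 KO, against 2.73, 3.02 and 3.12 FPKM in WT libraries. The groups did not overlap (log2 change 0.44, adjusted p = 0.00233, limma), on 85 to 151 recovered reads per library. Chac1, a glutathione-degrading enzyme gene induced by ATF4, measured 11.7, 10.6 and 11.5 FPKM in Carmil3 KO, against 7.16, 7.63 and 8.32 FPKM in WT libraries. It rose in each Carmil3 KO library above each WT library (log2 change 0.49, adjusted p = 0.000911, limma). Trib3, a pseudokinase gene that feeds back on ATF4, averaged 9.20 ± 0.740 FPKM in Carmil3 KO and 8.01 ± 0.552 FPKM in WT (SD, n = 3 each) and did not pass (adjusted p = 0.0944, limma).

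Both genes that name the regulatory subunits of the eIF2 phosphatase were called, in opposite directions. Ppp1r15a, the stress-inducible subunit GADD34, averaged 3.40 ± 0.266 FPKM in Carmil3 KO and 2.54 ± 0.241 FPKM in WT (SD, n = 3 each, log2 change 0.31, adjusted p = 0.0162, limma). This call was lost without Carmil3 KO replicate 2 (adjusted p = 0.0541, limma), WT replicate 1 (0.0695) or WT replicate 2 (0.0526). Ppp1r15b, the constitutive subunit CReP, averaged 30.5 ± 0.748 FPKM in Carmil3 KO and 36.8 ± 0.719 FPKM in WT (SD, n = 3 each, log2 change -0.26, adjusted p = 0.00369, limma). Atf3, a stress-induced factor gene, went against the other factors. It measured 0.780, 0.853 and 1.13 FPKM in Carmil3 KO, against 1.61, 1.59 and 1.61 FPKM in WT libraries, and so fell (log2 change -0.44, adjusted p = 0.0053, limma) on only 32 to 65 recovered reads. Nupr1, a small stress-response nuclear protein gene, averaged 7.37 ± 0.679 FPKM in Carmil3 KO and 8.03 ± 1.03 FPKM in WT (SD, n = 3 each) with overlapping groups.

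**Figure D2:**
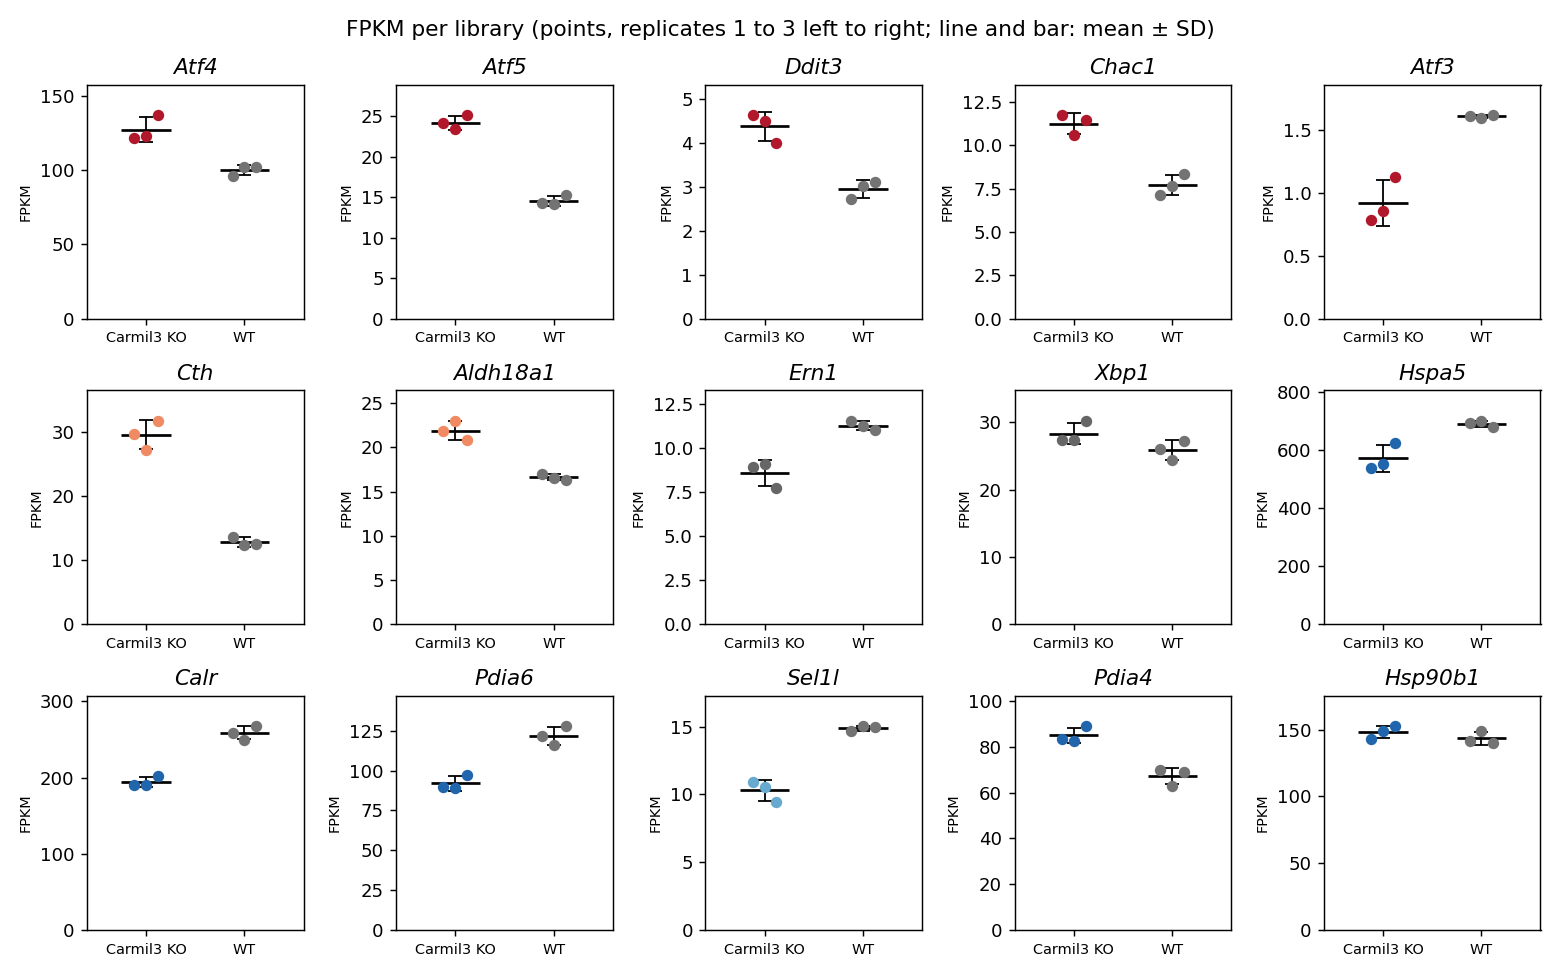
FPKM of 15 genes (y axes, from 0) in the 3 Carmil3 KO libraries (left) and the 3 WT libraries (right) of each panel, with mean and SD. The groups stand apart in every panel but that of Hsp90b1, where 143 to 152 FPKM in Carmil3 KO overlap 140.3 to 149 FPKM in WT, and Xbp1 stands apart by a narrow gap.

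In the amino-acid and one-carbon group the largest change was that of Cth, which encodes cystathionine gamma-lyase, the enzyme that makes cysteine from cystathionine. Cth (ENSMUSG00000028179, chromosome 3, 157894248 to 157925077, minus strand, GRCm38) measured 29.7, 27.3 and 31.7 FPKM in Carmil3 KO, against 13.7, 12.3 and 12.6 FPKM in WT libraries. The lowest Carmil3 KO library was well above the highest WT library, with a ratio of means of 2.30. The log2 change was 1.14 with a standard error of 0.069 (adjusted p = 7.08e-06, limma), and the call held under every alternative run. Cbs, the enzyme one step before Cth in the same pathway, was at 0.118 ± 0.0186 FPKM in Carmil3 KO and 0.164 ± 0.0482 FPKM in WT (SD, n = 3 each), below the expression filter.

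Aldh18a1, which starts proline synthesis from glutamate, averaged 21.9 ± 1.06 FPKM in Carmil3 KO and 16.6 ± 0.325 FPKM in WT (SD, n = 3 each) and rose (log2 change 0.38, adjusted p = 0.00111, limma). Pycr1, the last enzyme of the same route in mitochondria, averaged 1.21 ± 0.110 FPKM in Carmil3 KO and 0.968 ± 0.202 FPKM in WT (SD, n = 3 each) and did not pass (adjusted p = 0.206, limma). Asns, asparagine synthetase, measured 42.2, 45.5 and 44.1 FPKM in Carmil3 KO, against 37.3, 40.3 and 37.9 FPKM in WT libraries. It rose by 0.19 on the log2 scale (adjusted p = 0.029, limma), a call lost without Carmil3 KO replicate 2 (adjusted p = 0.107, limma), WT replicate 1 (0.132) or WT replicate 3 (0.0769).

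The serine synthesis genes moved little, although Phgdh and Psat1 were among the more abundant. Phgdh, the first enzyme of serine synthesis from glycolysis, averaged 143 ± 6.78 FPKM in Carmil3 KO and 141 ± 6.70 FPKM in WT (SD, n = 3 each), with a log2 change of 0.01 (adjusted p = 0.893, limma). Psat1, the second enzyme, averaged 103 ± 2.83 FPKM in Carmil3 KO and 97.9 ± 3.06 FPKM in WT (SD, n = 3 each, adjusted p = 0.281, limma). Psph, the last enzyme, averaged 7.91 ± 0.848 FPKM in Carmil3 KO and 8.61 ± 0.153 FPKM in WT (SD, n = 3 each, adjusted p = 0.271, limma), and was called lower without Carmil3 KO replicate 3 (adjusted p = 0.0402, limma). Its exons share 452 bases with Cct6a on the opposite strand, an abundant gene at 161 FPKM in Carmil3 KO and 190.4 FPKM in WT. The mitochondrial folate enzyme genes Shmt2 and Mthfd2 were called higher. Shmt2 averaged 78.7 ± 0.272 FPKM in Carmil3 KO and 70.4 ± 3.04 FPKM in WT (SD, n = 3 each, log2 change 0.16, adjusted p = 0.0433, limma). That call was lost without Carmil3 KO replicate 1 (adjusted p = 0.106, limma), Carmil3 KO replicate 2 (0.117), WT replicate 1 (0.132) or WT replicate 2 (0.106). Mthfd2 averaged 22.9 ± 1.62 FPKM in Carmil3 KO and 19.0 ± 0.388 FPKM in WT (SD, n = 3 each, log2 change 0.25, adjusted p = 0.0136, limma).

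Of the sensor genes only Ern1 was called. Ern1, which encodes the kinase and RNase IRE1, measured 8.92, 9.10 and 7.74 FPKM in Carmil3 KO, against 11.5, 11.2 and 11.1 FPKM in WT libraries. All Carmil3 KO libraries were below all WT libraries (log2 change -0.36, adjusted p = 0.00424, limma). Xbp1, whose messenger IRE1 splices, measured 27.4, 27.4 and 30.2 FPKM in Carmil3 KO, against 26.0, 24.3 and 27.3 FPKM in WT libraries, a narrow gap that did not pass (log2 change 0.13, adjusted p = 0.154, limma). Spliced and unspliced forms cannot be told apart in gene-level FPKM. Atf6 measured 19.6, 20.4 and 17.1 FPKM in Carmil3 KO, against 20.5, 21.7 and 19.8 FPKM in WT libraries, and the groups overlapped (adjusted p = 0.251, limma). Eif2ak3, which encodes PERK, measured 2.23, 2.04 and 2.36 FPKM in Carmil3 KO, against 2.25, 2.61 and 2.33 FPKM in WT libraries, and the groups overlapped (adjusted p = 0.432, limma).

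Hspa5, which encodes BiP, the main Hsp70-type chaperone of the ER and the usual marker of the unfolded protein response, was the most abundant of the 43 genes. Hspa5 (ENSMUSG00000026864, chromosome 2, 34771970 to 34777547, plus strand, GRCm38) measured 539, 553 and 626 FPKM in Carmil3 KO, against 693, 702 and 679 FPKM in WT libraries. Carmil3 KO replicate 3 was nearest to WT, and the groups did not overlap. It fell by 0.27 on the log2 scale, with a standard error of 0.071 (adjusted p = 0.0176, limma). Without Carmil3 KO replicate 3 the adjusted p was 0.000989 (limma). The call was lost without Carmil3 KO replicate 1 (adjusted p = 0.0672, limma), Carmil3 KO replicate 2 (0.065), WT replicate 1 (0.0747) or WT replicate 2 (0.0505), with log2 changes of -0.23 to -0.27.

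The partners of BiP fell with it or did not pass. Dnajb11 (ERdj3), a J-domain co-chaperone, averaged 17.2 ± 1.89 FPKM in Carmil3 KO and 22.6 ± 0.460 FPKM in WT (SD, n = 3 each, log2 change -0.38, adjusted p = 0.00543, limma). Dnajc3 (p58IPK), another J-domain protein that also restrains PERK, averaged 28.4 ± 0.792 FPKM in Carmil3 KO and 34.5 ± 1.67 FPKM in WT (SD, n = 3 each, log2 change -0.27, adjusted p = 0.00605, limma). Dnajb9 (ERdj4), a co-chaperone that is among the known XBP1 targets, averaged 5.70 ± 0.619 FPKM in Carmil3 KO and 6.40 ± 0.376 FPKM in WT (SD, n = 3 each, adjusted p = 0.183, limma). Without Carmil3 KO replicate 3 it was called lower (adjusted p = 0.0326, limma). Hyou1, a nucleotide exchange partner of BiP, averaged 21.3 ± 0.816 FPKM in Carmil3 KO and 22.9 ± 0.673 FPKM in WT (SD, n = 3 each, adjusted p = 0.179, limma). Sdf2l1, a component of a chaperone complex with BiP and ERdj3, averaged 15.3 ± 2.42 FPKM in Carmil3 KO and 13.0 ± 2.14 FPKM in WT (SD, n = 3 each, adjusted p = 0.275, limma).

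The lectin chaperones calreticulin and calnexin differed in their change. Calr, the soluble one, measured 190.1, 191 and 201 FPKM in Carmil3 KO, against 259, 249.98 and 267 FPKM in WT libraries, and fell with no overlap (log2 change -0.41, adjusted p = 0.000812, limma). Canx, the membrane-bound one, averaged 195 ± 5.76 FPKM in Carmil3 KO and 206 ± 3.62 FPKM in WT (SD, n = 3 each), with a log2 change of -0.08 that did not pass (adjusted p = 0.299, limma). The difference between these changes was not tested. Hsp90b1 (GRP94), the Hsp90 of the ER, averaged 148 ± 4.72 FPKM in Carmil3 KO and 144 ± 4.96 FPKM in WT (SD, n = 3 each, adjusted p = 0.554, limma).

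The protein disulfide isomerases went in different directions. Pdia6 measured 89.4, 89.0 and 97.2 FPKM in Carmil3 KO, against 122, 116 and 128 FPKM in WT libraries, and fell with no overlap (log2 change -0.40, adjusted p = 0.00139, limma). Pdia4 averaged 85.1 ± 3.44 FPKM in Carmil3 KO and 67.4 ± 3.68 FPKM in WT (SD, n = 3 each), and was the only gene of the ER arm to rise (log2 change 0.33, adjusted p = 0.00333, limma). Pdia3, which works with the lectin chaperones, averaged 287 ± 25.9 FPKM in Carmil3 KO and 299 ± 11.9 FPKM in WT (SD, n = 3 each, adjusted p = 0.564, limma). Creld2, a secreted ER stress-induced protein gene, averaged 17.6 ± 0.953 FPKM in Carmil3 KO and 21.3 ± 2.02 FPKM in WT (SD, n = 3 each, log2 change -0.26, adjusted p = 0.0284, limma). That call was lost without Carmil3 KO replicate 1 (adjusted p = 0.0726, limma), Carmil3 KO replicate 2 (0.0894), WT replicate 1 (0.0566) or WT replicate 3 (0.0747). Manf, an ER stress-induced neurotrophic factor gene, averaged 23.0 ± 2.93 FPKM in Carmil3 KO and 21.2 ± 1.57 FPKM in WT (SD, n = 3 each, adjusted p = 0.416, limma).

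In ER-associated degradation, misfolded proteins are recognised, moved back to the cytosol and marked with ubiquitin. Sel1l, the adaptor that holds the ubiquitin ligase complex together, measured 10.9, 10.6 and 9.40 FPKM in Carmil3 KO, against 14.65, 15.01 and 14.96 FPKM in WT libraries. It fell with no overlap (log2 change -0.49, adjusted p = 0.000578, limma), with a ratio of Carmil3 KO to WT of 0.692. Its ligase partner Syvn1 (HRD1) averaged 8.93 ± 0.932 FPKM in Carmil3 KO and 7.48 ± 0.740 FPKM in WT (SD, n = 3 each), with a log2 change of 0.23 that did not pass (adjusted p = 0.079, limma). It was called higher without Carmil3 KO replicate 3 (adjusted p = 0.0325, limma), without WT replicate 3 (0.048) and with quantile normalization (0.0472). Syvn1 exons share 91 bases with Mrpl49 on the opposite strand, which averaged 34.4 FPKM in Carmil3 KO and 26.6 FPKM in WT. The mannosidase-like genes Edem2 and Edem1, which mark glycoproteins for degradation, averaged 10.8 ± 0.186 and 18.9 ± 0.889 FPKM in Carmil3 KO, and 12.9 ± 0.473 and 19.0 ± 0.476 FPKM in WT (SD, n = 3 each). Edem2 fell (log2 change -0.24, adjusted p = 0.00914, limma), a call lost without WT replicate 1 (adjusted p = 0.0507, limma), and Edem1 did not pass (adjusted p = 0.977, limma). Herpud1, a ubiquitin-like ER membrane protein gene, averaged 10.3 ± 0.718 FPKM in Carmil3 KO and 11.1 ± 1.18 FPKM in WT (SD, n = 3 each, adjusted p = 0.416, limma). Derl3 was at 0.0271 to 0.0553 FPKM in Carmil3 KO and 0.113 to 0.188 FPKM in WT libraries, from 1 to 7 recovered reads, and was not tested.

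Set side by side, the ATF4 enzymes and the ER arm were displaced in opposite directions in every Carmil3 KO library. The median deviation of the 9 tested enzymes from the WT mean was 0.15, 0.16 and 0.15 on the log2 scale in Carmil3 KO replicates 1 to 3, and between -0.02 and 0.01 in WT libraries. For the 19 tested ER arm genes it was -0.13, -0.13 and -0.14 in Carmil3 KO, and between -0.05 and 0.01 in WT libraries. The summed FPKM of the 10 enzymes was 453, 441 and 463 in Carmil3 KO, against 411, 394 and 415 in WT libraries. The summed FPKM of the 20 ER arm genes was 1694, 1716 and 1877 in Carmil3 KO, against 1996, 2002 and 1987 in WT libraries, so this sum was lower in all 3 Carmil3 KO libraries and nearest to WT in replicate 3. The sum is carried mainly by Hspa5, Pdia3, Calr and Canx, and the median deviation was not nearest to WT in that replicate. When the regulators were counted with the enzymes, 10 of 18 rose and 2 fell, with a median log2 change of 0.18. Since the genes were grouped with results of these data known, no test of the arms against each other is given.

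**Figure D3:**
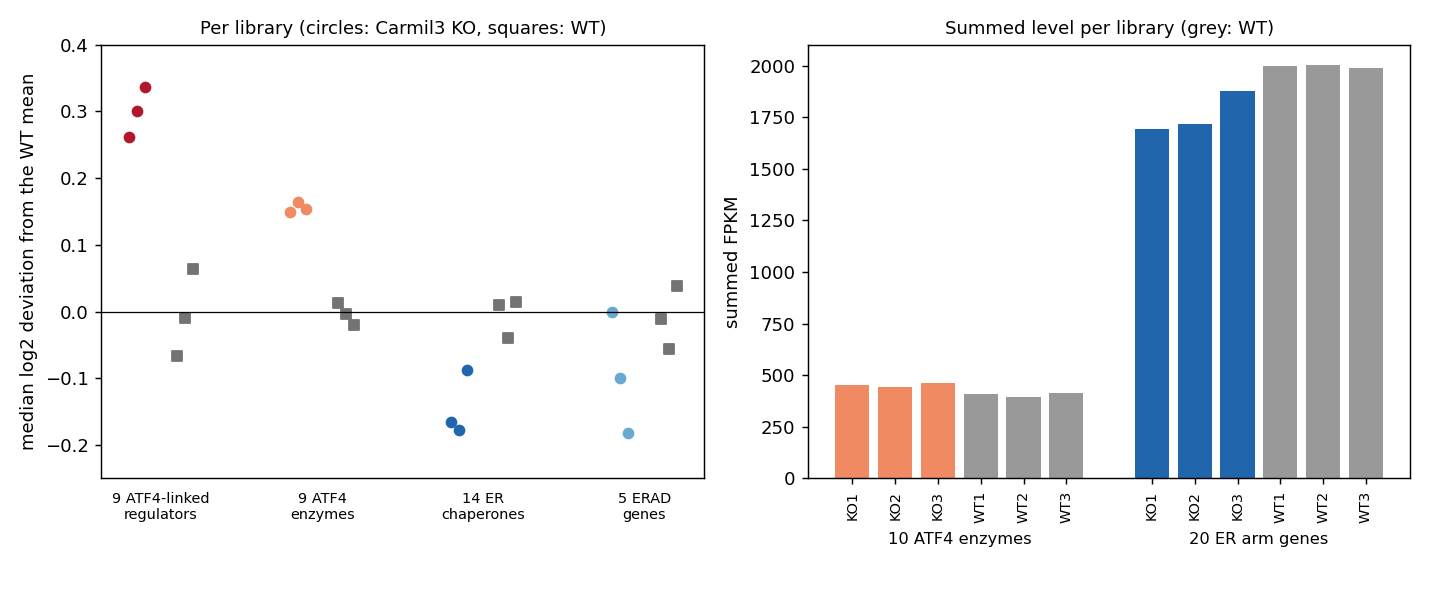
Left, median log2 deviation from the WT mean per library (y axis) for the tested genes of 4 groups, with circles for Carmil3 KO and squares for WT. Right, summed FPKM per library (y axis, from 0) of the 10 ATF4 enzymes and the 20 ER arm genes, coloured for Carmil3 KO and grey for WT. The enzymes stand above and the ER chaperones below WT in all 3 Carmil3 KO libraries, while the 5 tested degradation genes (ERAD) overlap WT in Carmil3 KO replicate 1.

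Several called genes lay among chromosomal neighbours that moved the same way. The median log2 change of all tested genes was -0.21 on chromosome 8, -0.17 on chromosome 12 and 0.16 on chromosome 6. For each gene the median over its 20 closest tested neighbours to either side was taken as the local level. Calr (chromosome 8), Pdia6 and Sel1l (both chromosome 12) lay among neighbours with medians of -0.24, -0.23 and -0.24. Pdia4 and Mthfd2, both on chromosome 6, lay among neighbours with medians of 0.21 and 0.20, and Atf5 on chromosome 7 among neighbours with 0.22. After the local median was subtracted, 12 of the 22 called genes were called again in the same direction. These were Atf4 (centred log2 change 0.38), Atf5 (0.48), Ddit3 (0.43), Chac1 (0.48), Cth (1.08), Aldh18a1 (0.47) and Asns (0.18) on the higher side. On the lower side they were Ern1 (-0.31), Hspa5 (-0.23), Dnajb11 (-0.37), Dnajc3 (-0.30) and Sel1l (-0.25).

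The calls of Calr (adjusted p = 0.0554, limma on centred values), Pdia6 (0.0679), Pdia4 (0.16), Mthfd2 (0.591), Atf3 (0.066), Ppp1r15a (0.178), Ppp1r15b (0.105), Creld2 (0.263), Edem2 (0.0912) and Shmt2 (0.0668) were lost. Xbp1 (centred log2 change 0.24, adjusted p = 0.0237, limma) and Edem1 (-0.22, adjusted p = 0.0198) were called only after centring. With centring 13.1% of all genes tested were called higher and 13.6% lower. With it 3 of 9 enzymes rose and 0 fell, and 0 of 19 ER arm genes rose and 5 fell. Of the 9 regulators 4 rose and 0 fell. What moves whole neighbourhoods together in these libraries was not tested.

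**Figure D4:**
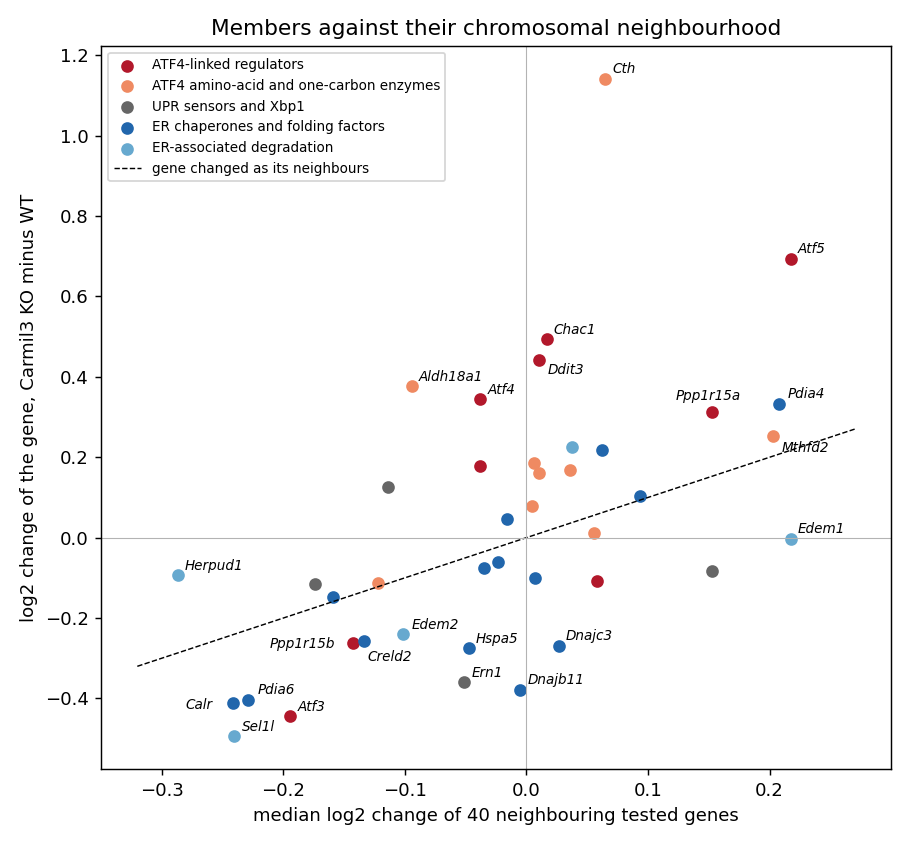
Log2 change of each tested gene (y axis) against the local median, over 20 tested neighbours to either side (x axis), coloured by group; the dashed line marks a gene that changed as its neighbours did. Cth, Chac1, Ddit3, Atf4 and Aldh18a1 lie far above the line and Dnajb11, Dnajc3 and Ern1 below it, while Mthfd2 and Pdia4 lie nearer to it.

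Other genes of the same pathways were taken from lists that hold none of the 43 genes. These lists too were chosen with earlier results of these data known. Their counts stand beside 16.9% of all genes tested called higher and 18.7% lower, or 13.1% and 13.6% with centring. Of 20 tested further genes known to respond to ATF4, 10 rose and 2 fell (8 and 2 with centring), with a median log2 change of 0.17. Eif4ebp1, a translation repressor gene, Stc2, a secreted glycoprotein gene, and Cebpb, a transcription factor gene, had log2 changes of 0.43, 0.41 and 0.40. Ddit4, an inhibitor of the growth kinase complex mTORC1, fell to 22.0 ± 3.12 FPKM in Carmil3 KO, against 35.6 ± 3.55 FPKM in WT (SD, n = 3 each, log2 change -0.68), and the amino-acid transporter gene Slc38a2 fell by 0.21. Of 20 cytosolic aminoacyl-tRNA synthetase genes, several of which are ATF4 targets, 4 rose and 8 fell (3 and 2 with centring). Cars (0.38), Yars (0.34) and Gars (0.22) rose most, and Farsa (-0.48), Dars (-0.34) and Tars (-0.31) fell most. Of 10 tested further genes of serine, glycine and one-carbon metabolism, 3 fell, namely Gcsh (-0.43), Dld (-0.36) and Mthfd1 (-0.34), and with centring 1 fell.

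Of 11 genes of the other eIF2 kinases, eIF2 and its exchange factor eIF2B, 0 rose and 4 fell (0 and 1 with centring). Over all genes tested 16.9% rose and 18.7% fell (13.1% and 13.6% with centring). Eif2s1, which encodes the subunit of eIF2 that the kinases phosphorylate, had a log2 change of -0.44, Eif2ak4, which encodes GCN2, had -0.33, and Eif2b2 had -0.26. After centring only Eif2ak4 was called (-0.31, adjusted p = 0.00521, limma). Of 9 tested genes of the proteases, relatives and effectors of the unfolded protein response, Bcl2l11, the pro-apoptotic gene of BIM, rose to 21.6 ± 0.895 FPKM in Carmil3 KO, against 12.6 ± 0.422 FPKM in WT (SD, n = 3 each, log2 change 0.74). Map3k5 also rose (0.38). Mbtps2 (-0.29) and Mbtps1 (-0.26), the Golgi proteases that cut ATF6, and Atf6b (-0.28) fell. With centring 2 rose and 1 fell, and of these 3 falls only that of Atf6b was called (adjusted p = 0.018, limma).

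Further ER genes were called in both directions, as were all genes tested, with 16.9% higher and 18.7% lower. Of 22 tested further genes of ER folding and oxidation, 5 rose and 3 fell, with a median log2 change of 0.01. Ero1l, the oxidase that supplies disulfide bonds, rose to 106 ± 14.5 FPKM in Carmil3 KO, against 53.7 ± 3.22 FPKM in WT (SD, n = 3 each, log2 change 0.96, adjusted p = 0.00018, limma). The glucosidase genes Mogs (0.33) and Prkcsh (0.23) also rose, and Sil1 (-0.42), a nucleotide exchange factor of BiP, Fkbp11 (-0.36) and Dnajc1 (-0.30) fell. Of 18 tested further degradation genes, 2 rose and 4 fell, with Edem3 (-0.52) and Derl1 (-0.37) among those that fell and Ube2g2 (0.26) and Faf2 (0.22) rising. Of 23 genes of ER translocation and export, 7 rose and 1 fell, with Srprb (0.37), Spcs2 (0.32) and Sar1a (0.32) rising most and Spcs3 (-0.43) falling. With centring the counts were 2 higher and 3 lower, 1 higher and 3 lower, and 5 higher and 1 lower for these 3 lists, but not all for the same genes. Of the genes named here, Mogs, Prkcsh, Edem3, Ube2g2, Faf2 and Spcs2 lost their calls with centring, and the others kept them. Txndc5, Erlec1 and Sec61g were called higher, and Aup1 lower, only after centring. The centred shares over all genes tested were 13.1% higher and 13.6% lower.

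**Figure D5:**
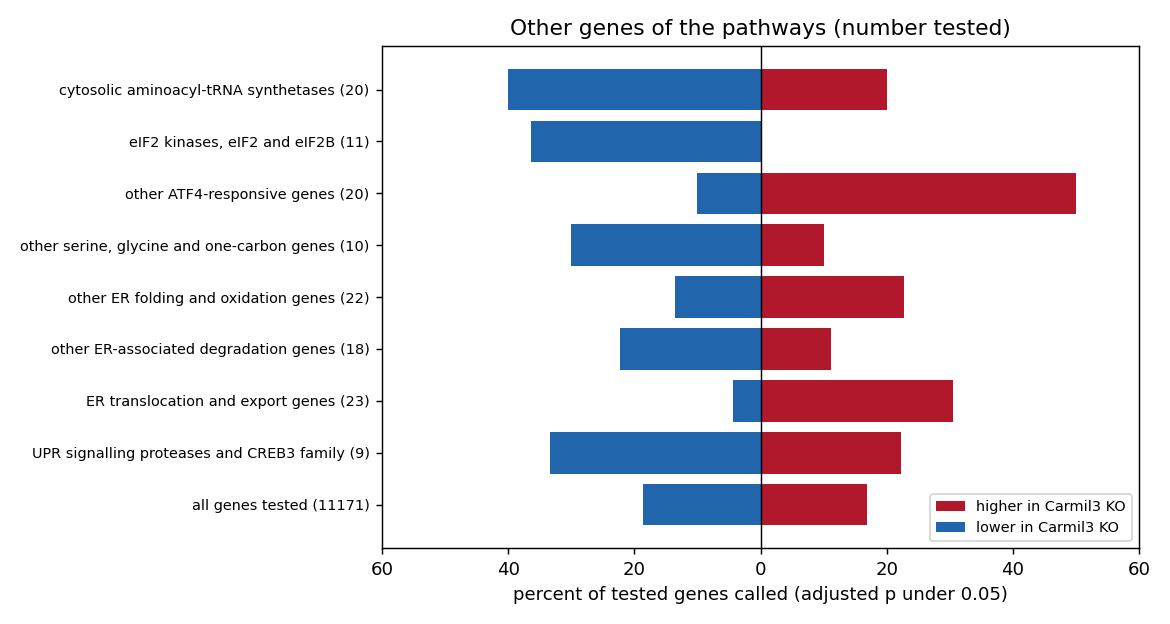
Percent of tested genes called higher (red, right) and lower (blue, left) in Carmil3 KO (x axis) for 8 further lists (rows, number tested in parentheses) and for all genes tested. The list of other ATF4-responsive genes has the longest red bar, with 10 of 20 genes, and the eIF2 list has no red bar, against 16.9% higher and 18.7% lower over all genes tested.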

How the data were processed

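RNA was sequenced from 3 Carmil3 KO and 3 WT libraries of 4T1 cells, grouped by titles. The authors deposited 1 table of values in the form of FPKM, a unit read from the values. Tools named per the submitters' processing notes are TopHat2 2.0.12, TopHat, HTSeq 0.6.0, Bowtie2, Bowtie and CASAVA, with build mm10 and no roles. Since it is not stated whether counting used strand, overlapping genes, such as Ddit3 with Mars, may share reads, as may Phgdh and its pseudogene. Identifiers were matched to GENCODE M21 (GRCm38, also called mm10), giving 23577 of 23644 genes a symbol. Multiplied by exon length, between 91.9% and 92.2% of values of genes with up to 500 reads were whole reads within 0.02, which gave approximate read totals.

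Values were tested as log2(FPKM + 1), which understates changes of low genes, using R 4.3.3 and limma 3.58.1, whose eBayes step was set to trend and robust. Genes needed at least 1 FPKM in at least 3 libraries; 41 of 43 passed. The fit was tested on simulated data. Alternatives are given in the closing section; limma-voom on recovered reads, chosen after seeing the data, called 2022 genes higher and 2250.0 lower. The 43 genes and the lists were chosen with earlier results of these data known. All 43 genes were named. Atf4, Ddit3, the sensors, Xbp1, Hspa5 and genes called with a log2 change of at least 0.4 in size were given per library, and up to 3 called genes per direction of each other list. Asns and per-library values of other genes in the plots were added after their values were seen. Motif letters were searched in RefSeq promoter windows of GRCm38.p6. A planned count of proteins by their last residues was not run, since no protein sequences were used here. Of the listed further genes, Fgf21 and Hm13 were not analysed here, and single values of some others are not reported here. Tables were handled in pandas 2.3.3 on Python 3.11.15.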

Additional observations from a re-analysis of the deposited data

How the results depend on the processing

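No gene of the 41 tested reversed its direction with a call under any alternative run, and pseudocounts, median-of-ratios rescaling and limma-voom on recovered reads changed no call of them. Tested against a 1.5-fold change, 118 genes of the whole table were higher and 193 lower, 1 enzyme rose, 0 and 0 ER arm genes and 0 and 0 regulators were called higher and lower. Without a filter 3 enzymes rose; with a filter of 5 FPKM 3 of 6 regulators rose and 1 fell. The median log2 change of the enzymes was 0.19 with a pseudocount of 0.1 and 0.19 with limma-voom, and that of the regulators was 0.15 with a pseudocount of 5. With neighbour centring 3 enzymes rose (median 0.13), 0 ER arm genes rose and 5 fell, and 0 regulators fell (median 0.22). Counted with the regulators, 10 enzymes and regulators rose and 2 fell. With quantile normalization 2 ER arm genes rose.

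With 1 library left out, 1182 to 2041 genes of the whole table were higher and 1358 to 2218 lower, both lowest without WT replicate 1. Between 3 and 5 enzymes rose and 0 to 1 fell (median 0.16 to 0.22), 4 to 5 regulators rose and 2 to 2 fell (median 0.28 to 0.36), and 1 to 2 ER arm genes rose and 5 to 9 fell (median -0.14 to -0.084). Without WT replicate 1, 3 enzymes rose and 5 ER arm genes fell; without Carmil3 KO replicate 2, 3 enzymes rose. Same-numbered libraries deviated from their group means with correlations of -0.06, 0.15 and 0.10 over genes, and libraries of different numbers with -0.20 to 0.08. With 3 libraries per group these values cannot show whether the replicate numbers pair the libraries. With the replicate number as a block 2 ER arm genes rose, the second being Sdf2l1 (adjusted p = 0.0244, limma), and Shmt2 was not called (adjusted p = 0.0511, limma). Where no cause is named for a change, the cause was not tested. Depth limits Derl3, Cbs, Atf3 and Pycr1 most.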
